A study of Mus musculus with 8 samples.

Results

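Livers of HFD-fed MKRN1-null and WT mice were described across cell types and gene programmes, with the 4 liver libraries taken from the 8 libraries of the series. The other 4 libraries, from subcutaneous fat, were not used. The WT mice and the MKRN1-null mice (MKRN1 KO in the sample labels) were male C57BL/6 littermates, with 2 liver libraries of each genotype, which the labels give as 24 weeks old and fed the HFD for 19 weeks from 6 weeks of age. All 4 livers came from mice on the HFD, and no chow-fed liver was compared. The null allele is present in every cell of the mouse, in hepatocytes as in other liver cells and other organs. Poly(A) RNA of whole liver had been sequenced, and expression was given in FPKM, the fragments of a transcript scaled to its length and to the number of fragments mapped. Values were summed over the transcripts of a gene. Of 24532 genes in the files, 10822 reached 1 FPKM in at least 2 of the 4 liver libraries and were tested.

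MKRN1 is an E3 ubiquitin ligase, an enzyme that marks other proteins for degradation, and the study examined it as a regulator of AMPK, the kinase that senses low cellular energy. Most RNA of a liver comes from hepatocytes, which secrete plasma proteins, detoxify drugs and turn over amino acids. The remainder comes from Kupffer cells and recruited macrophages, sinusoidal endothelium, vitamin A storing stellate cells, bile duct cells and blood cells. When a liver stores fat on an HFD, macrophages are recruited, stellate cells lay down collagen, and the sex-specific programme that growth hormone pulses keep up in male hepatocytes commonly weakens.

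Mkrn1 (Entrez 54484, chromosome 6 of mm10, 39397816 to 39420369) checked the genotype. Its level was 9.42 and 10.1 FPKM in WT and 2.86 and 2.21 FPKM in MKRN1-null livers (log2 fold change −1.61, SE 0.12, adjusted p = 0.00976). Both MKRN1-null livers lay below both WT livers, and the remaining signal was not assigned to a part of the gene here. Over left-out libraries and a second scaling its adjusted p ranged from 0.0149 to 0.0567, and MKRN1-null replicate 2 was the library without which the call was lost.

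More genes were lower than higher in the MKRN1-null livers. Log2(FPKM + 1) was compared with limma, and a gene is called when its p, adjusted over all 10822 genes by the Benjamini-Hochberg method, is under 0.05. By this rule 2106 genes (19.5%) were called, 272 higher (2.51%) and 1834 lower (16.9%), and the median over the tested genes was −0.17 on the log2 scale. A median-of-ratios scaling, which sets the typical gene equal between libraries and is called rescaling below, gave 1244 called genes (11.5%), 440 higher (4.07%) and 804 lower (7.43%), at a median of 0.00. The count of each list below is read against 2.51% higher and 16.9% lower genes, and its count after rescaling against 4.07% and 7.43%. Members of the lists were chosen with earlier results of these data known, so that a list's share beside the share of all genes is a description and not independent support. Leaving out a library changed the number of calls from 2106 to 956 (without WT replicate 1), 1880 (without WT replicate 2), 384 (without MKRN1-null replicate 1) or 55 (without MKRN1-null replicate 2). P-values from 2 libraries per genotype measure only the spread between these libraries. No list was tested as a set. The filter of 1 FPKM in at least 2 libraries can be passed on the livers of 1 genotype alone. Gpnmb, Trem2, Timp1, Epcam, Krt19, Ntrk2, Plat and Cbr3, for example, were under 1 FPKM in both MKRN1-null livers. Jchain, Bhlhe41 and Jund were under 1 FPKM in both WT livers. Such genes were tested only because they were high in the other genotype, so that their calls are not independent of the filter.

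Some values belonged to single libraries. The depth was 6.05 to 7.46 gigabases aligned to transcripts, and between 10153 and 11045 genes reached 1 FPKM. Replicates resembled each other across genes (Pearson's r of 0.984 between the WT and 0.993 between the MKRN1-null livers). Between genotypes r ran from 0.952 (WT replicate 1 with MKRN1-null replicate 2) to 0.974 (WT replicate 2 with MKRN1-null replicate 1). WT replicate 1 had the highest Mt1 and Mt2, metallothionein genes induced by stress hormones and metals. It also had the lowest summed level of male-biased genes, urinary protein genes among them. WT replicate 2 differed from the other 3 livers in its clock genes. Where such a library decides a value, it is named. In these bulk samples fewer cells of a type and less RNA per cell cannot be told apart. Nor can the values give the cell type in which a listed marker changed.

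The hepatocyte identity of the tissue was plain in all 4 livers. Alb, the gene for albumin, was the most abundant hepatocyte marker with 39904 and 33787 FPKM in WT and 39858 and 42772 FPKM in MKRN1-null livers (log2 fold change 0.17, SE 0.17, adjusted p = 0.499), and the genotypes overlapped. Of 12 hepatocyte markers, 3 were higher and 1 lower, with a median log2 fold change of 0.24. The count was 1 higher and 1 lower without WT replicate 1, 2 higher and 1 lower without WT replicate 2, 0 higher and 0 lower with either MKRN1-null replicate left out and 6 higher and 1 lower after rescaling. The 3 that rose were Hnf4a, a master transcription factor of hepatocytes (0.53), Serpina1a, an α1-antitrypsin gene (0.77), and Cyp2e1, an ethanol-oxidizing P450 (0.79). Hpx, the gene for the heme carrier hemopexin, was the 1 that fell, with 3752 and 3496 FPKM in WT and 2153 and 2052 FPKM in MKRN1-null livers (log2 fold change −0.78, SE 0.11, adjusted p = 0.0184). Cebpa, another hepatocyte transcription factor, was not called (0.26, adjusted p = 0.0713). Among the 4 called genes named for hepatocyte identity, the call was kept by 2 without WT replicate 1, 3 without WT replicate 2, 0 with either MKRN1-null replicate left out and 4 after rescaling (adjusted p up to 0.17).

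Hepatocytes divide their work along the sinusoid, with glutamine synthesis and drug oxidation next to the central vein and urea synthesis next to the portal tract. Of 17 pericentral genes, 5 were higher and 4 lower in MKRN1-null livers and so moved in both directions. Calls then numbered 3 higher and 4 lower without WT replicate 1, 5 higher and 4 lower without WT replicate 2 or after rescaling, 2 higher and 3 lower without MKRN1-null replicate 1 and 0 higher and 0 lower without MKRN1-null replicate 2. Glul, the glutamine synthetase gene of the innermost pericentral cells, fell, with 500.5 and 489.6 FPKM in WT and 305 and 277 FPKM in MKRN1-null livers (log2 fold change −0.77, SE 0.09, adjusted p = 0.0159). Rhbg, an ammonium transporter gene of the same cells, fell, with 4.88 and 5.67 FPKM in WT and 1.68 and 1.44 FPKM in MKRN1-null livers (log2 fold change −1.29, SE 0.11, adjusted p = 0.0109). The 2 transporter genes Slc13a3 (−1.55) and Slc1a4 (−1.3) were lower as well. Against these, the pericentral P450 genes Cyp1a2 (1.3) and Cyp2c37 (2.27) rose, as did Oat, for ornithine aminotransferase (0.57), and Slc1a2, for a glutamate transporter (0.69). Lgr5 and Axin2, which Wnt signals switch on around the central vein, were not called (−0.41 with adjusted p = 0.0719, and −0.09 with adjusted p = 0.629). Of 16 periportal genes, 3 were higher and 1 lower. Leaving out libraries or rescaling gave 3 higher and 1 lower without WT replicate 1 or after rescaling, 2 higher and 1 lower without WT replicate 2 or without MKRN1-null replicate 1 and 0 higher and 0 lower without MKRN1-null replicate 2. Cps1, which encodes the first enzyme of the urea cycle, rose, with 269 and 275 FPKM in WT and 548 and 632 FPKM in MKRN1-null livers (log2 fold change 1.11, SE 0.10, adjusted p = 0.0119). Hal (0.71) and Gls2 (0.43), which encode enzymes of histidine and glutamine breakdown, rose too, while the aldehyde dehydrogenase gene Aldh1b1 fell (−1.07). Of the 12 called genes named for the zones, the call held for 9 without WT replicate 1, 10 without WT replicate 2, 7 without MKRN1-null replicate 1, 0 without MKRN1-null replicate 2 and 12 after rescaling (adjusted p up to 0.22).

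Macrophage genes divided. Markers of resident Kupffer cells were mostly not called, whereas genes of recruited, lipid-associated macrophages were lower in both MKRN1-null livers. Of 14 tested genes of the second kind, 12 were lower and 0 higher, with a median log2 fold change of −1.55. Counts by alternative were 12 lower without WT replicate 1, 13 lower without WT replicate 2, 8 lower without MKRN1-null replicate 1, 2 lower without MKRN1-null replicate 2 and 11 lower after rescaling. Spp1 (Entrez 20750, chromosome 5 of mm10, 104435111 to 104441053), which encodes osteopontin and is also made by bile duct cells, was 242 and 201 FPKM in WT and 34.4 and 29.7 FPKM in MKRN1-null livers (log2 fold change −2.75, SE 0.13, adjusted p = 0.00576). Trem2, a lipid-sensing receptor that marks these cells, was 5.31 and 5.55 FPKM in WT and 0.73 and 0.876 FPKM in MKRN1-null livers (log2 fold change −1.84, SE 0.10, adjusted p = 0.0069). Gpnmb, another of their surface markers, was 3.45 and 2.55 FPKM in WT and 0.0931 and 0 FPKM in MKRN1-null livers (log2 fold change −1.93, SE 0.15, adjusted p = 0.00976). In each of these genes the gap between the genotypes exceeded the difference between replicates. Trem2 and Gpnmb were under 1 FPKM in both MKRN1-null livers and passed the filter on the WT livers alone. Cd63, for a lysosomal tetraspanin (−2.83), Lgals3, for galectin 3 (−2.08), Cd9 (−1.57), the monocyte receptor genes Cx3cr1 (−1.23) and Ccr2 (−0.99), and Lyz2, the lysozyme gene of myeloid cells (−1.34), were lower too. Mmp12, a macrophage elastase gene, missed the threshold with 4.72 and 1.38 FPKM in WT and 0.247 and 0.0448 FPKM in MKRN1-null livers (adjusted p = 0.0551), and Fabp5 did not differ by more than its spread (−0.05, adjusted p = 0.724). Among the 9 called genes named for recruited macrophages, the call was kept by 9 with either WT replicate left out or after rescaling, 6 without MKRN1-null replicate 1 and 2 without MKRN1-null replicate 2 (adjusted p up to 0.093). Spp1 and Trem2 kept the call in each case.

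Of 14 Kupffer cell genes, 2 were lower and 0 higher, and the median log2 fold change was −0.12. Recomputed, the calls were 3 higher and 2 lower without WT replicate 1, 0 higher and 7 lower without WT replicate 2 and 0 higher and 0 lower with either MKRN1-null replicate left out or after rescaling. The WT livers did not resemble each other here. Clec4f, a lectin gene that marks mouse Kupffer cells, was 42.1 and 11.4 FPKM in WT and 24.8 and 29.3 FPKM in MKRN1-null livers (log2 fold change 0.27, SE 0.59, adjusted p = 0.761), and the MKRN1-null livers lay between the WT livers. The same order held for Vsig4, a complement receptor gene, with 15.9 and 3.87 FPKM in WT and 7.88 and 8.83 FPKM in MKRN1-null livers (log2 fold change 0.04, SE 0.59, adjusted p = 0.964). Timd4, a receptor gene of embryonically seeded Kupffer cells, was 1.86 and 0.433 FPKM in WT and 1.76 and 1.89 FPKM in MKRN1-null livers (log2 fold change 0.48, SE 0.34, adjusted p = 0.339), and Marco, a scavenger receptor gene, was 4.66 and 0.603 FPKM in WT and 7.03 and 3.46 FPKM in MKRN1-null livers (log2 fold change 0.99, SE 0.65, adjusted p = 0.314). The only called genes were C1qb (−0.91) and C1qc (−0.99), which encode chains of complement C1q and are made by macrophages in general, and both calls were lost after rescaling. Adgre1, the gene of the macrophage antigen F4/80, was not called (−0.89, adjusted p = 0.0707), at 7.998 and 4.39 FPKM in WT and 2.62 and 2.89 FPKM in MKRN1-null livers, and Csf1r, for the receptor of the macrophage growth factor CSF1, was not called either (−0.74, adjusted p = 0.126). The summed FPKM of the list was 411 in WT replicate 1, against 264 in WT replicate 2 and 229.5 and 249 in the MKRN1-null livers, and the list's counts above turned on which WT liver was left out.

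**Figure D1:**
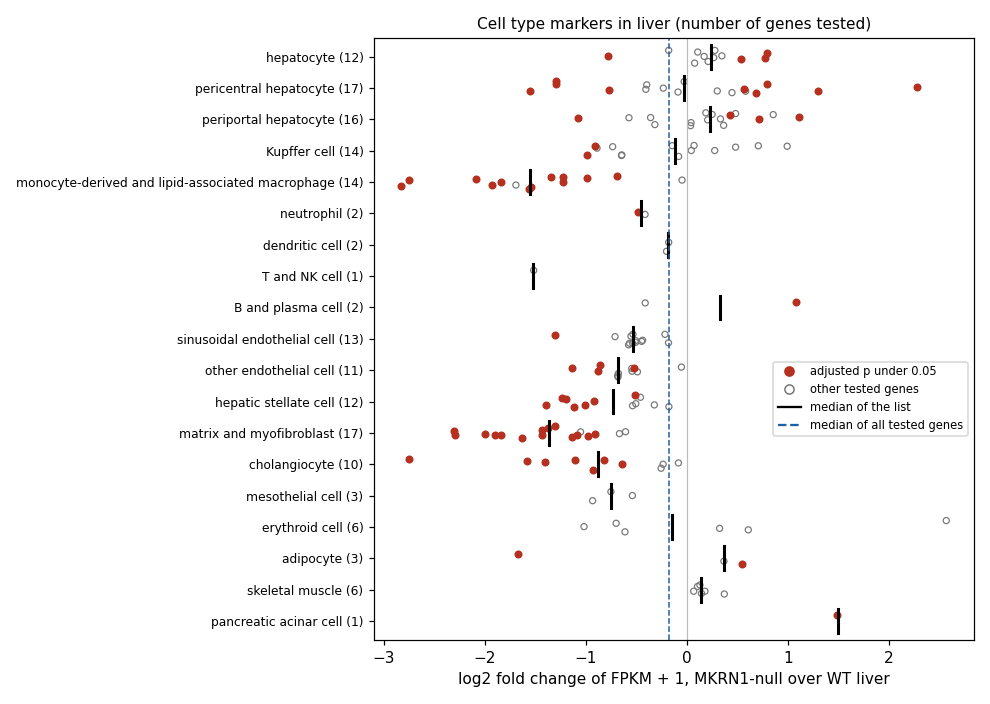
Log2 fold change of FPKM + 1 in MKRN1-null over WT livers (x axis) for each tested marker gene of the cell type lists (rows, with the number tested), 1 point per gene, filled where the adjusted p from limma was under 0.05; the black bars are list medians and the dashed line is the median of all 10822 genes. Recruited macrophage (median −1.55), matrix (−1.37) and cholangiocyte (−0.88) genes lie to the left, and Kupffer cell genes lie on both sides of 0.

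MHC class II molecules present peptides to CD4 T cells, and in liver they are made by macrophages, dendritic cells, B cells and endothelium. All 8 tested genes of class II presentation had lower values in both MKRN1-null livers than in both WT livers. Of these, 7 were called lower and 0 higher, with a median log2 fold change of −1.61. The calls became 7 lower without WT replicate 1 or after rescaling, 8 lower without WT replicate 2, 6 lower without MKRN1-null replicate 1 and 4 lower without MKRN1-null replicate 2. Cd74, for the invariant chain that guides class II molecules through the cell, was 155 and 141 FPKM in WT and 46.6 and 43.8 FPKM in MKRN1-null livers (log2 fold change −1.69, SE 0.09, adjusted p = 0.0069). H2-Aa, an α-chain gene, was 82.3 and 75.8 FPKM in WT and 23.2 and 20.2 FPKM in MKRN1-null livers (log2 fold change −1.82, SE 0.10, adjusted p = 0.00726). H2-Ab1, its β-chain partner, was 65.4 and 60.4 FPKM in WT and 19.98 and 18.2 FPKM in MKRN1-null livers (log2 fold change −1.67, SE 0.09, adjusted p = 0.0069). The chains of this complex had similar log2 fold changes. H2-Eb1 (−1.76), the peptide exchange factor genes H2-DMa (−0.9) and H2-DMb1 (−1.2), and Ctss, for the protease that trims the invariant chain (−1.55), were lower, and H2-DMb2 was not called (−0.67, adjusted p = 0.064). Ciita, for the coactivator that switches these genes on, stayed under the limit for testing, with 0.518 and 0.495 FPKM in WT and 0.154 and 0.0913 FPKM in MKRN1-null livers. Class I presentation, which all nucleated cells perform, gave 2 lower and 0 higher of 17 genes, with a median of −0.19, near that of all genes. Repeating the test gave 0 lower without WT replicate 1, with either MKRN1-null replicate left out or after rescaling and 2 lower without WT replicate 2. H2-K1 was 998 and 983 FPKM in WT and 819 and 689.9 FPKM in MKRN1-null livers (log2 fold change −0.4, SE 0.12, adjusted p = 0.0741), and the called members were H2-D1 (−0.66) and Tap2, for a peptide transporter (−0.37). The recruited macrophage list moved with the class II genes, at a summed 360.1 to 458 FPKM in WT and 86.3 to 95.1 FPKM in MKRN1-null livers, and its part in them was not tested. Of the 9 called genes named for antigen presentation, the call held for 7 without WT replicate 1 or after rescaling, 8 without WT replicate 2, 6 without MKRN1-null replicate 1 and 4 without MKRN1-null replicate 2 (adjusted p up to 0.23). Cd74, H2-Aa, H2-Ab1 and H2-Eb1 kept the call in each case.

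The promoters of the class II genes are shown because these genes moved together and share a regulatory module whose Y box binds the factor NF-Y. The Y box was searched as TGATTGG on either strand in RefSeq promoter windows of 300 bases (GRCm38.p6) around the starts of transcripts. Its reverse complement holds the shorter CCAAT motif. Of the 11 listed genes, 8 had a window and 6 of these held the motif in at least 1 window. Counted per window and not per gene, 7.82% of all 32851 windows held it. In all 6 it was on the strand of the gene, its first base 45 to 92 bases before the start. These were H2-Aa, H2-Eb1 and H2-DMb1, which were called lower, H2-DMb2, which was not called, and H2-Oa and H2-Ob, which were not tested. The other genes called lower, Cd74, H2-Ab1, H2-DMa and Ctss, had no match or no window. Windows of H2-Aa (chr17:34287774-34288073, minus strand), H2-Eb1 (chr17:34305617-34305916, plus strand) and H2-DMb1 (chr17:34152941-34153240, plus strand) are printed 5′ to 3′ with the motif in capitals. It started 50, 61 and 63 bases before the start of the gene.
H2-Aa: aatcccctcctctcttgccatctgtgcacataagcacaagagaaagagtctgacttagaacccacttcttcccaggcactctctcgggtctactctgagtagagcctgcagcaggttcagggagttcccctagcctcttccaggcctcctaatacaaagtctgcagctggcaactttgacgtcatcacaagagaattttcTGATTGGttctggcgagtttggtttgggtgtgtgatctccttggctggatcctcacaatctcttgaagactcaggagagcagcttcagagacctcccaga
H2-Eb1: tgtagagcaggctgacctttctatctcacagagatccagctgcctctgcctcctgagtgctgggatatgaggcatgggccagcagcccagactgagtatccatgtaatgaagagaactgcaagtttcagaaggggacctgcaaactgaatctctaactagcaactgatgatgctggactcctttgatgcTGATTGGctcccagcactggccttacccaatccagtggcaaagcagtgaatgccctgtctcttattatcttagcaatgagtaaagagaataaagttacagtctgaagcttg
H2-DMb1: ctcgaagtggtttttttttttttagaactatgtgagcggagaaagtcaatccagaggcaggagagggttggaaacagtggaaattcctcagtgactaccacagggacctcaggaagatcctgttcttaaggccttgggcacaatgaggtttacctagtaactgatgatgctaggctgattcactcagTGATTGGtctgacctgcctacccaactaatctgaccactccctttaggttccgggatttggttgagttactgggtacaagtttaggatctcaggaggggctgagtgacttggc
The letters describe these windows only, and binding was not measured.

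Lymphocyte and granulocyte genes mostly stayed under the limit for testing. Of 16 listed T and NK cell genes 1 was tested, Ccl5, a chemokine gene of these cells, which was 3.62 and 12.8 FPKM in WT and 1.81 and 1.77 FPKM in MKRN1-null livers (log2 fold change −1.52, SE 0.52, adjusted p = 0.101). Both MKRN1-null livers lay below both WT livers, and the gene was called lower without WT replicate 1 (−2.31, adjusted p = 0.0211) and without WT replicate 2 (−0.73, adjusted p = 0.0292). Cd3e, for a chain of the T cell receptor complex, was at or below 0.519 FPKM in all livers. Of 9 listed neutrophil genes 2 were tested, and S100a9, for a calcium-binding protein of neutrophils, was lower at 3.14 and 3.504 FPKM in WT and 2.196 and 1.96 FPKM in MKRN1-null livers (log2 fold change −0.49, SE 0.10, adjusted p = 0.0399). That call was lost after rescaling and without each library in turn. The dendritic cell markers Xcr1, Flt3 and Clec9a stayed under 1 FPKM, and of the list's 2 tested genes none was called at either scaling (Zbtb46 with adjusted p = 0.218 and Bst2 with adjusted p = 0.237 from limma, none with an unadjusted p under 0.05). Of B and plasma cell genes, Jchain, for the chain that joins secreted antibodies, was higher, with 0.7902 and 0.456 FPKM in WT and 2.52 and 2.296 FPKM in MKRN1-null livers (log2 fold change 1.08, SE 0.14, adjusted p = 0.0173), while Cd79b, a B cell receptor gene, was not called (−0.41, adjusted p = 0.11). Markers of other organs were mostly low. The adipocyte genes Adipoq, Lep and Plin1 stayed at or below 0.225 FPKM, and 3 genes of that list were tested. Fabp4, for a fatty acid carrier of adipocytes and macrophages, was the most abundant in both WT livers. It was lower, with 47.3 and 44.6 FPKM in WT and 14.7 and 12.8 FPKM in MKRN1-null livers (log2 fold change −1.67, SE 0.10, adjusted p = 0.00779). Adrb3, for a β-adrenergic receptor, was higher (0.54), and Cfd, for adipsin, was not called (0.37, adjusted p = 0.735). Skeletal muscle genes summed to 10.1 to 12.7 FPKM, and of 11 pancreatic acinar genes 8 were listed at 0 in every liver. Of 6 tested erythroid genes and 3 mesothelial genes none was called by limma, with unadjusted p under 0.05 in 0 and 2 of them. Hba-a2, for an α-globin chain, was 865 and 835 FPKM in WT and 706 and 386 FPKM in MKRN1-null livers (adjusted p = 0.148), lowest in MKRN1-null replicate 2. The tested pancreatic gene was Cela1, an elastase gene that liver also transcribes, which rose, with 10.3 and 13.9 FPKM in WT and 34.5 and 36.3 FPKM in MKRN1-null livers (log2 fold change 1.49, SE 0.15, adjusted p = 0.0129). Among the 5 called genes named for lymphocytes, granulocytes and other organs, the call was kept by 3 with either WT replicate left out, 2 without MKRN1-null replicate 1, 1 without MKRN1-null replicate 2 and 4 after rescaling (adjusted p up to 0.23). Fabp4 kept the call in each case.

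Endothelial genes leaned lower but mostly were not called. Of 13 sinusoidal endothelial genes, all had a negative log2 fold change with a median of −0.53, and 1 was called. In the alternative fits 1 lower without WT replicate 1 or after rescaling, 8 lower without WT replicate 2 and 0 lower with either MKRN1-null replicate left out were called. Stab2, a scavenger receptor gene of the sinusoid, was 11.2 and 7.28 FPKM in WT and 4.78 and 5.495 FPKM in MKRN1-null livers (log2 fold change −0.71, SE 0.20, adjusted p = 0.0704). Both MKRN1-null livers lay below both WT livers, by less than the WT livers differed from each other. Lyve1, a hyaluronan receptor gene, was the called member, with 9.24 and 6.14 FPKM in WT and 2.71 and 2.24 FPKM in MKRN1-null livers (log2 fold change −1.3, SE 0.20, adjusted p = 0.022). Of 11 tested genes of other endothelium, 4 were lower and 0 higher with a median of −0.68, among them Cd34 (−1.14), a progenitor and capillary antigen gene, Emcn (−0.88), for endomucin, and Ly6a (−0.86). Alternatives gave 3 lower without WT replicate 1 or after rescaling, 7 lower without WT replicate 2 and 0 lower with either MKRN1-null replicate left out. Pecam1, a general endothelial gene, missed the threshold (−0.68, adjusted p = 0.0716), and Wnt2, the central vein Wnt gene, was 1.51 and 1.04 FPKM in WT and 0.938 and 1.45 FPKM in MKRN1-null livers (log2 fold change −0.06, SE 0.17, adjusted p = 0.838). Of the 4 called genes named for endothelium, the call held for 4 with either WT replicate left out or after rescaling and 0 with either MKRN1-null replicate left out (adjusted p up to 0.15).

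Stellate cell and matrix genes were lower. Stellate cells store vitamin A when quiescent and become matrix-producing myofibroblasts in injured liver. Of 12 tested stellate cell genes, 7 were lower and 0 higher with a median of −0.73. The count was 5 lower without WT replicate 1 or after rescaling, 9 lower without WT replicate 2 and 0 lower with either MKRN1-null replicate left out. Lrat, the enzyme gene of vitamin A storage that best defines these cells, was 5.08 and 3.15 FPKM in WT and 2.14 and 3.24 FPKM in MKRN1-null livers (log2 fold change −0.46, SE 0.24, adjusted p = 0.225), with MKRN1-null replicate 2 above WT replicate 2. Reln (−0.51, adjusted p = 0.0954) and Ngfr (−0.54, adjusted p = 0.0693) were not called either. Dcn, for the matrix proteoglycan decorin, was 148 and 111 FPKM in WT and 46.5 and 49.96 FPKM in MKRN1-null livers (log2 fold change −1.39, SE 0.15, adjusted p = 0.0147). Pdgfrb, for the PDGF receptor of stellate cells and pericytes (−1.12), Rgs5 (−1.23), Cygb (−1.2), Colec11 (−1.01) and Hgf, for hepatocyte growth factor (−0.92), were lower. Among the 6 called genes named for stellate cells, the call was kept by 5 without WT replicate 1 or after rescaling, 6 without WT replicate 2 and 0 with either MKRN1-null replicate left out (adjusted p up to 0.16).

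Of 17 tested matrix and myofibroblast genes, 14 were lower and 0 higher, with a median of −1.37. Calls then numbered 13 lower without WT replicate 1, 15 lower without WT replicate 2, 6 lower without MKRN1-null replicate 1, 0 lower without MKRN1-null replicate 2 and 11 lower after rescaling. Col1a1 (Entrez 12842, chromosome 11 of mm10, 94936224 to 94953042), for the main fibrillar collagen, was 14.04 and 9.24 FPKM in WT and 1.796 and 1.296 FPKM in MKRN1-null livers (log2 fold change −2.29, SE 0.22, adjusted p = 0.0122). Col3a1, which forms mixed fibrils with it, was 31.3 and 21.7 FPKM in WT and 4.83 and 4.16 FPKM in MKRN1-null livers (log2 fold change −2.3, SE 0.19, adjusted p = 0.0102). Timp1, an inhibitor of matrix proteases induced in fibrosis, was 3.92 and 2.15 FPKM in WT and 0.554 and 0.0348 FPKM in MKRN1-null livers (log2 fold change −1.63, SE 0.30, adjusted p = 0.0292). WT replicate 1 had the highest level of each of these genes. Col1a2 (−2.0), the basement membrane genes Col4a1 (−1.43) and Col4a2 (−1.44), Lum, for lumican (−1.9), Mgp (−1.84) and Loxl1, a collagen cross-linking enzyme gene (−1.14), fell. Acta2, the smooth muscle actin gene of myofibroblasts, was not called, with 2.42 and 1.76 FPKM in WT and 0.605 and 1.33 FPKM in MKRN1-null livers (adjusted p = 0.0946), and neither was Sparc (−1.05, adjusted p = 0.192). Of the 9 called genes named for the matrix, the call held for 8 without WT replicate 1, 9 without WT replicate 2 or after rescaling, 6 without MKRN1-null replicate 1 and 0 without MKRN1-null replicate 2 (adjusted p up to 0.14).

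Cholangiocyte genes, those of bile duct cells, were lower at 7 of 10 tested genes and higher at 0, with a median of −0.88. Leaving out libraries or rescaling gave 5 lower without WT replicate 1, 8 lower without WT replicate 2, 1 lower with either MKRN1-null replicate left out and 6 lower after rescaling. Epcam, an adhesion gene that hepatocytes lack, was 4.25 and 2.81 FPKM in WT and 0.444 and 0.545 FPKM in MKRN1-null livers (log2 fold change −1.58, SE 0.18, adjusted p = 0.0147). Krt19, the keratin gene that defines bile ducts, was 2.78 and 2.15 FPKM in WT and 0.648 and 0.562 FPKM in MKRN1-null livers (log2 fold change −1.1, SE 0.13, adjusted p = 0.0155). Epcam and Krt19 were under 1 FPKM in both MKRN1-null livers and passed the filter on the WT livers alone. Tspan8 (−1.41) and Cldn7 (−0.93) were lower as well. Sox9, the transcription factor gene of duct cells and of injured periportal hepatocytes, was 1.06 and 1.77 FPKM in WT and 1.56 and 0.9804 FPKM in MKRN1-null livers (log2 fold change −0.09, SE 0.21, adjusted p = 0.789), and the genotypes overlapped. Among the 4 called genes named for bile ducts, the call was kept by 3 without WT replicate 1, 4 without WT replicate 2 or after rescaling and 0 with either MKRN1-null replicate left out (adjusted p up to 0.13). Spp1 stands in the duct and the recruited macrophage list and makes up most of the summed FPKM of both in the WT livers. Among duct, matrix, class II and recruited macrophage genes, WT replicate 1 had the highest summed FPKM in each list (356 for duct genes, 222 for matrix, 405 for class II and 458 for recruited macrophages). WT replicate 2 followed with 288, 148, 368 and 360.1. The higher MKRN1-null liver had 98.9, 59.0, 121 and 95.1, below both WT livers in each list.

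**Figure D2:**
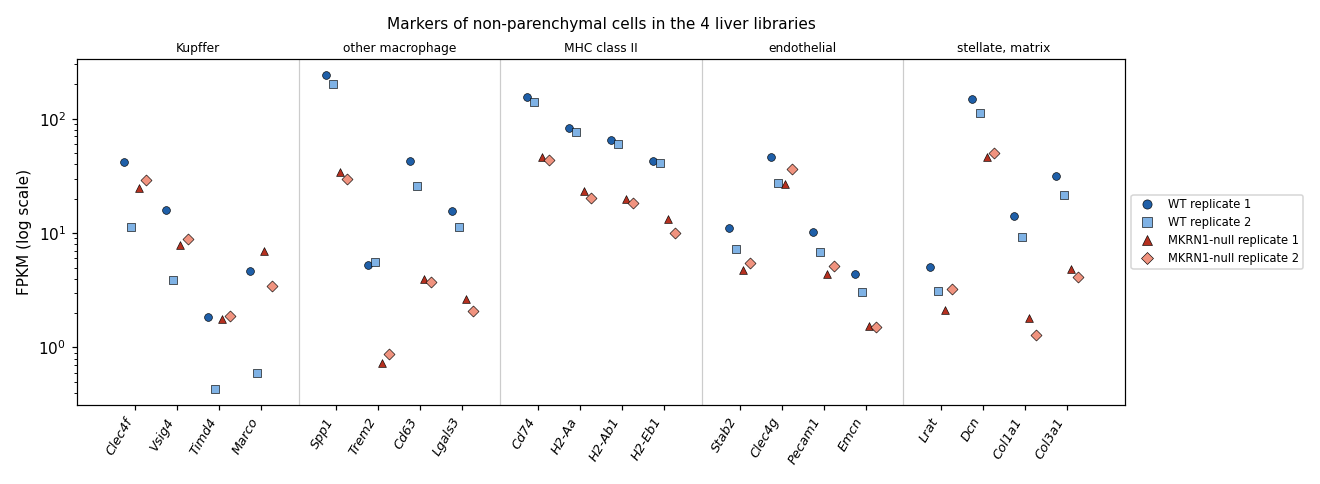
FPKM on a log scale (y axis) of 20 markers of non-parenchymal cells, with 1 symbol per liver library, blue for WT and red for MKRN1-null. Recruited macrophage, class II, decorin and collagen genes lie lower in both MKRN1-null livers than in both WT livers, whereas Clec4f, Vsig4, Clec4g and Lrat overlap.

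The list of cytoskeleton and cell surface genes was drawn up with the falls of several members, among them Ly6d, already known, so that its count is a description. In it, 24 of 27 tested were lower and 0 higher, with a median of −1.55. Counts by alternative were 21 lower without WT replicate 1 or without MKRN1-null replicate 1, 22 lower without WT replicate 2 or after rescaling and 6 lower without MKRN1-null replicate 2. Ly6d had the steepest fall of all named genes, with 82.9 and 60.05 FPKM in WT and 1.11 and 0.791 FPKM in MKRN1-null livers (log2 fold change −5.2, SE 0.18, adjusted p = 0.00312). Tubb2a, a β-tubulin gene, was 208 and 391 FPKM in WT and 26.2 and 10.8 FPKM in MKRN1-null livers (log2 fold change −4.0, SE 0.49, adjusted p = 0.0163), and its neighbour Tubb2b, with which it shares much sequence, fell by a similar measure (−3.64). Anxa2, a membrane-binding annexin gene, was 91.1 and 101 FPKM in WT and 13.2 and 9.05 FPKM in MKRN1-null livers (log2 fold change −3.02, SE 0.18, adjusted p = 0.00779). For each of these the lower WT liver exceeded the higher MKRN1-null liver several times over. Anxa5 (−2.5), S100a11 (−2.68), Lgals1, for galectin 1 (−2.53), and Cd24a (−1.95) fell, and so did the hepatocyte keratin genes Krt8 (−1.06) and Krt18 (−0.86). Vim, the intermediate filament gene of mesenchymal cells, was lower (−1.25). Krt23 was not called (−0.07, adjusted p = 0.892). Outside the lists, the 12 steepest falls also held Sprr1a, a small proline-rich protein gene (−3.6), Uap1l1 (−3.11), Ifi27l2b (−3.13), and the lipid genes Apoa4 (−4.12), Cidea (−4.07) and Cidec (−3.63). Of the 17 called genes named for the cytoskeleton, the surface and the steepest falls, the call held for 14 without WT replicate 1, 15 without WT replicate 2, 16 without MKRN1-null replicate 1, 10 without MKRN1-null replicate 2 and 17 after rescaling (adjusted p up to 0.14).

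Cell cycle genes were lower, most of them at a few FPKM. Of 22 listed genes 11 were tested, and of these 10 were lower and 0 higher, with a median of −0.86. Some, such as Cdc20, were under 1 FPKM in both MKRN1-null livers and passed the filter on the WT livers alone. All 22 listed genes, tested or not, were higher in each WT liver than in both MKRN1-null livers. After quantile normalization, which gives all libraries the same distribution of values, 2 were called lower. Recomputed, the calls were 9 lower with either WT replicate left out or after rescaling, 1 lower without MKRN1-null replicate 1 and 0 lower without MKRN1-null replicate 2. Mcm2, a subunit gene of the replicative helicase, was 2.86 and 2.58 FPKM in WT and 1.09 and 0.6901 FPKM in MKRN1-null livers (log2 fold change −0.98, SE 0.14, adjusted p = 0.0196). Cdc20, for an activator of mitotic exit, was 1.68 and 2.74 FPKM in WT and 0.382 and 0.285 FPKM in MKRN1-null livers (log2 fold change −1.25, SE 0.19, adjusted p = 0.0211). Ccnd1, the cyclin D1 gene, was the most abundant, with 22.5 and 13.4 FPKM in WT and 6.03 and 6.62 FPKM in MKRN1-null livers (log2 fold change −1.33, SE 0.25, adjusted p = 0.0301). Mki67, the proliferation marker, stayed under 1 FPKM in all livers, with 0.692 and 0.861 FPKM in WT and 0.152 and 0.147 FPKM in MKRN1-null livers. Of 19 tested p53 targets, 5 were lower and 0 higher with a median of −0.37. The calls became 2 lower without WT replicate 1, without MKRN1-null replicate 1 or after rescaling, 4 lower without WT replicate 2 and 0 lower without MKRN1-null replicate 2. Cdkn1a, the gene of the cell cycle inhibitor p21, was 9.03 and 14.3 FPKM in WT and 3.45 and 0.786 FPKM in MKRN1-null livers (log2 fold change −2.13, SE 0.48, adjusted p = 0.043). Phlda3 (−1.31), Trp53inp1 (−0.85) and the apoptosis genes Bax (−0.63) and Fas (−0.63) fell, and Mdm2, for the ligase that degrades p53, was not called (−0.3, adjusted p = 0.0848). Among the 8 called genes named for the cell cycle and p53, the call was kept by 4 without WT replicate 1, 7 without WT replicate 2, 3 without MKRN1-null replicate 1, 0 without MKRN1-null replicate 2 and 5 after rescaling (adjusted p up to 0.17).

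Lysosomal genes, which both macrophages and hepatocytes express, were lower at 18 of 32 genes and higher at 0, with a median of −0.49. Repeating the test gave 10 lower without WT replicate 1, 20 lower without WT replicate 2, 3 lower without MKRN1-null replicate 1, 0 lower without MKRN1-null replicate 2 and 12 lower after rescaling. Ctsa (−0.67) and Ctsb (−0.46), cathepsin genes expressed in many cell types, fell by less than those that follow, and Ctsc was not called (0.04, adjusted p = 0.885). Larger falls were in Ctss (−1.55) and Cd68 (−1.21), both macrophage genes, in Hexa (−1.04) and Laptm5 (−0.99), and in Lipa, for the acid lipase that frees stored cholesterol and fat. Lipa was 118 and 112 FPKM in WT and 66.6 and 50.8 FPKM in MKRN1-null livers (log2 fold change −0.97, SE 0.15, adjusted p = 0.0214). Recruited macrophage genes, of which 12 of 14 were lower, moved with this list, and their part in it was not tested. Of the 7 called genes named for lysosomes, the call held for 4 without WT replicate 1, 7 without WT replicate 2, 2 without MKRN1-null replicate 1, 0 without MKRN1-null replicate 2 and 5 after rescaling (adjusted p up to 0.2).

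Signals of inflammation were lower in part. Of 22 tested chemokine and cytokine genes, 9 were lower and 1 higher with a median of −0.74. In the alternative fits 2 higher and 6 lower without WT replicate 1, 1 higher and 11 lower without WT replicate 2, 0 higher and 1 lower without MKRN1-null replicate 1, 0 higher and 0 lower without MKRN1-null replicate 2 and 1 higher and 4 lower after rescaling were called. Ccl2, the chemokine gene that recruits monocytes, was 3.92 and 2.505 FPKM in WT and 1.33 and 0.685 FPKM in MKRN1-null livers (log2 fold change −1.07, SE 0.24, adjusted p = 0.043). Cxcl14 (−1.34), Ccl4 (−1.19) and the adhesion genes Icam1 (−1.24) and Vcam1 (−1.1) fell. Il1r1, for the interleukin 1 receptor that hepatocytes carry, rose, with 5.45 and 4.75 FPKM in WT and 10.2 and 11.3 FPKM in MKRN1-null livers (log2 fold change 0.94, SE 0.11, adjusted p = 0.0147). Tnf and Il6 did not reach 1 FPKM, and Il6 was listed at 0 in all livers. Of 37 tested interferon response genes, 6 were lower, near the share of all genes (16.9%), and 1 higher, with a median of −0.24. The balance of higher and lower calls changed with the scaling. Alternatives gave 0 higher and 1 lower without WT replicate 1, 1 higher and 7 lower without WT replicate 2, 0 higher and 2 lower without MKRN1-null replicate 1, 0 higher and 0 lower without MKRN1-null replicate 2 and 4 higher and 3 lower after rescaling. Ifi27l2a fell, with 16.7 and 14.8 FPKM in WT and 6.89 and 7.16 FPKM in MKRN1-null livers (log2 fold change −1.06, SE 0.10, adjusted p = 0.0117), Irf8, a transcription factor gene of myeloid cells, fell (−0.85), Iigp1, for an interferon-inducible GTPase, rose (0.61), and Ifit1, Isg15 and Irf7 were not called. Among the 9 called genes named for these signals, the call was kept by 6 without WT replicate 1, 9 without WT replicate 2, 1 without MKRN1-null replicate 1, 0 without MKRN1-null replicate 2 and 8 after rescaling (adjusted p up to 0.18).

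Acute phase genes, by which hepatocytes answer inflammation, went in both directions. Of 31 tested genes, 11 were lower and 2 higher with a median of −0.36. The count was 1 higher and 7 lower without WT replicate 1, 2 higher and 13 lower without WT replicate 2, 1 higher and 5 lower without MKRN1-null replicate 1, 0 higher and 4 lower without MKRN1-null replicate 2 and 7 higher and 9 lower after rescaling. Lcn2, for lipocalin 2, was 62.3 and 51.2 FPKM in WT and 7.08 and 2.98 FPKM in MKRN1-null livers (log2 fold change −3.34, SE 0.35, adjusted p = 0.0137). Saa2, a serum amyloid A gene, was 176 and 158 FPKM in WT and 30.5 and 13.4 FPKM in MKRN1-null livers (log2 fold change −2.98, SE 0.37, adjusted p = 0.0169). Saa1, its close neighbour, was 284 and 277 FPKM in WT and 61.2 and 34.96 FPKM in MKRN1-null livers (log2 fold change −2.57, SE 0.27, adjusted p = 0.0135). Orm2 (−2.41), Orm3 (−1.52), Hp, for haptoglobin (−0.84), and Apcs, for serum amyloid P (−0.84), fell too. Saa4, the constitutive member of the family, went the other way with 133 and 101 FPKM in WT and 186 and 209 FPKM in MKRN1-null livers (log2 fold change 0.76, SE 0.16, adjusted p = 0.0364). The largest rise was in Hamp, for hepcidin, the hormone that blocks iron export, with 379 and 458 FPKM in WT and 1039 and 1445 FPKM in MKRN1-null livers (log2 fold change 1.55, SE 0.20, adjusted p = 0.0169). Crp and the most abundant fibrinogen gene, Fgb, were not called (−0.08 with adjusted p = 0.62, and 0.41 with adjusted p = 0.0544). Of the 9 called genes named for the acute phase, the call held for 4 without WT replicate 1 or without MKRN1-null replicate 2, 8 without WT replicate 2, 6 without MKRN1-null replicate 1 and 9 after rescaling (adjusted p up to 0.17). Lcn2, Saa1 and Orm2 kept the call in each case.

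Other secreted proteins of hepatocytes had medians above 0. Of 27 tested complement genes, 2 were higher and 2 lower with a median of 0.21, the lower ones being C1qb and C1qc of macrophages. Calls then numbered 2 higher and 2 lower without WT replicate 1, 3 higher and 3 lower without WT replicate 2, 0 higher and 0 lower with either MKRN1-null replicate left out and 4 higher and 0 lower after rescaling. C8b, for a chain of the membrane attack complex, rose, with 23.4 and 41.5 FPKM in WT and 104 and 129 FPKM in MKRN1-null livers (log2 fold change 1.86, SE 0.29, adjusted p = 0.0222), and C1ra rose (0.42). C3, the central component, was 1064 and 844 FPKM in WT and 1158 and 1446 FPKM in MKRN1-null livers (log2 fold change 0.45, SE 0.17, adjusted p = 0.128). Of 30 tested coagulation and fibrinolysis genes, 5 were higher and 2 lower with a median of 0.15. Leaving out libraries or rescaling gave 2 higher and 2 lower without WT replicate 1, 3 higher and 3 lower without WT replicate 2, 0 higher and 0 lower with either MKRN1-null replicate left out and 12 higher and 2 lower after rescaling. The higher genes encode hepatocyte products: F7, for coagulation factor VII, was 31.6 and 27.1 FPKM in WT and 52.1 and 59.3 FPKM in MKRN1-null livers (log2 fold change 0.9, SE 0.12, adjusted p = 0.0173), and F11 (0.61), Serpinf2 (0.53), Plg, for plasminogen (0.43), and Klkb1 (0.38) rose. The lower genes encode plasminogen activators. Plat was 1.67 and 1.401 FPKM in WT and 0.176 and 0.108 FPKM in MKRN1-null livers (log2 fold change −1.15, SE 0.12, adjusted p = 0.0129), and Plau fell (−0.85). Among the 9 called genes named for complement and coagulation, the call was kept by 5 without WT replicate 1, 6 without WT replicate 2, 0 with either MKRN1-null replicate left out and 9 after rescaling (adjusted p up to 0.22).

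Of 19 tested genes of iron handling, 1 was higher and 6 lower with a median of −0.24. Counts by alternative were 0 higher and 0 lower without WT replicate 1 or without MKRN1-null replicate 2, 1 higher and 3 lower without WT replicate 2, 1 higher and 0 lower without MKRN1-null replicate 1 and 3 higher and 0 lower after rescaling. Besides Hamp, which was higher, the ferritin genes Fth1 (−0.62) and Ftl1 (−0.75), which store iron, Tfrc, for the transferrin receptor (−0.49), Hfe, a sensor of iron upstream of hepcidin (−0.54), Slc11a2, an iron importer gene (−0.44), and Cp, for ceruloplasmin (−0.35), were lower, and none of the lower calls was left after rescaling. Bmp6, the endothelial signal for hepcidin, was not called (−0.2, adjusted p = 0.245). Hamp2, a near copy of Hamp, was 165 and 39.04 FPKM in WT and 42.97 and 61.3 FPKM in MKRN1-null livers (log2 fold change −0.64, SE 0.69, adjusted p = 0.528), high in WT replicate 1 only. Of the 6 called genes named for iron, the call held for 0 without WT replicate 1, with either MKRN1-null replicate left out or after rescaling and 2 without WT replicate 2 (adjusted p up to 0.32).

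**Figure D3:**
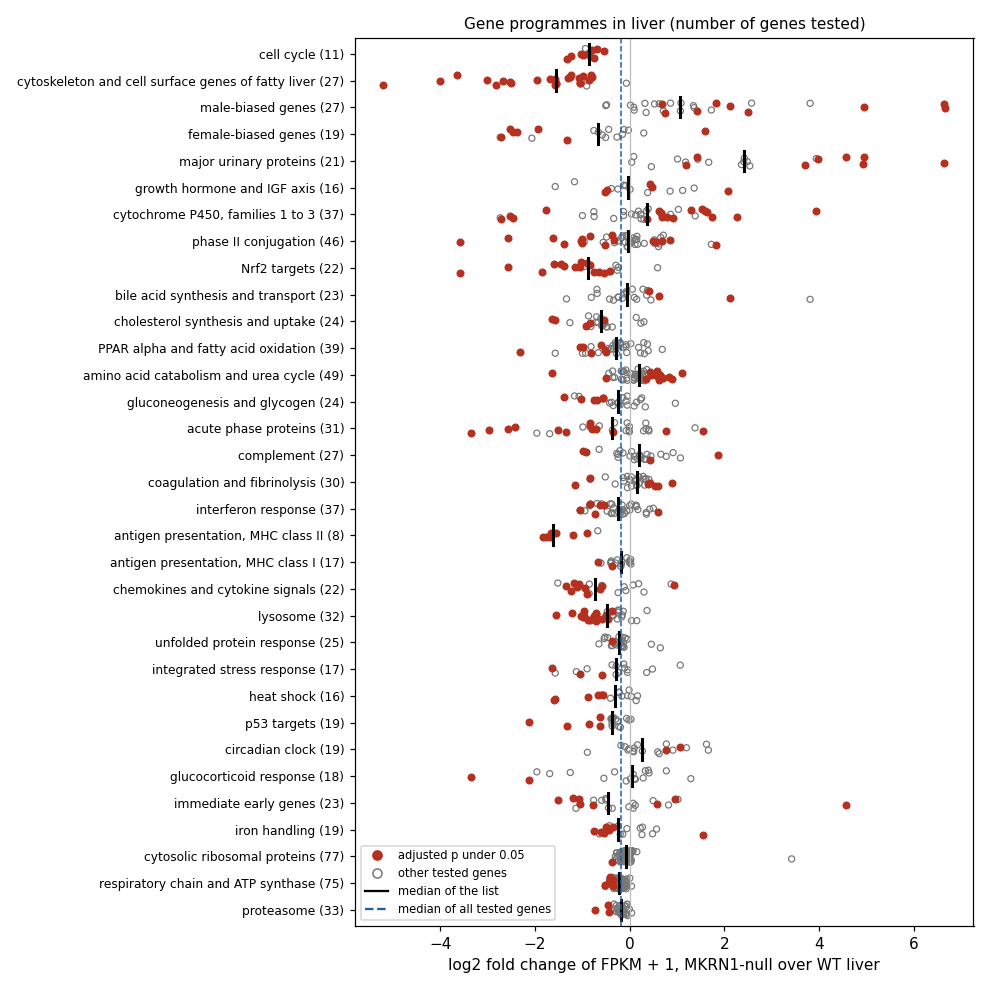
Log2 fold change of FPKM + 1 in MKRN1-null over WT livers (x axis) for each tested gene of the programme lists (rows, with the number tested), drawn as in the plot of cell type markers. Cytoskeleton and surface, class II and Nrf2 target genes lie to the left, male-biased and major urinary protein genes to the right, and ribosomal protein genes stay near 0 (median −0.08).

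The male programme of hepatocytes was higher in MKRN1-null livers, but unevenly, and WT replicate 1 was far from WT replicate 2. Of 27 tested male-biased genes, 9 were higher and 0 lower with a median of 1.07. Recomputed, the calls were 7 higher and 1 lower without WT replicate 1, 18 higher and 0 lower without WT replicate 2, 3 higher and 0 lower without MKRN1-null replicate 1, 0 higher and 0 lower without MKRN1-null replicate 2 and 8 higher and 0 lower after rescaling. Hsd3b5, a male-specific steroid dehydrogenase gene, was 0.0415 and 2.25 FPKM in WT and 153 and 225 FPKM in MKRN1-null livers (log2 fold change 6.66, SE 0.56, adjusted p = 0.0106). Cyp7b1, for an oxysterol hydroxylase, was 15.4 and 33.98 FPKM in WT and 84.7 and 124 FPKM in MKRN1-null livers (log2 fold change 2.11, SE 0.40, adjusted p = 0.0316). Susd4, a complement regulator gene, had the smallest SE of the called members, with 1.801 and 2.34 FPKM in WT and 9.69 and 10.01 FPKM in MKRN1-null livers (log2 fold change 1.83, SE 0.12, adjusted p = 0.00851). In these the genotypes did not overlap. Serpina1e (2.49), Mup7 (6.62) and Mup1 (4.94) rose. Other genes of the list were lowest in WT replicate 1 and were not called. Cyp4a12a, an androgen-dependent P450 gene, was 12.4 and 146 FPKM in WT and 45.1 and 68.5 FPKM in MKRN1-null livers (log2 fold change 0.35, SE 1.14, adjusted p = 0.843), and Elovl3 was 13.5 and 116 FPKM in WT and 66.6 and 27.4 FPKM in MKRN1-null livers (log2 fold change 0.09, SE 1.05, adjusted p = 0.956). For both, WT replicate 2 was the highest of the 4 livers. C6, for a complement component, was 20.9 and 70.5 FPKM in WT and 80.4 and 83.8 FPKM in MKRN1-null livers (log2 fold change 1.07, SE 0.56, adjusted p = 0.22), and the 3 livers other than WT replicate 1 were alike. The whole list summed to 8726 FPKM in WT replicate 1 and 21449 in WT replicate 2, against 33353 and 38274 in the MKRN1-null livers. Abundant urinary protein genes such as Mup7 are part of this sum, so that it is not separate from the urinary proteins given below. Gene by gene, WT replicate 1 lay below both MKRN1-null livers in 28 of the 29 listed genes and WT replicate 2 in 21. Among the 6 called genes named for male-biased expression, the call was kept by 5 without WT replicate 1, 6 without WT replicate 2 or after rescaling, 3 without MKRN1-null replicate 1 and 0 without MKRN1-null replicate 2 (adjusted p up to 0.14).

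Female-biased genes moved in both directions, mostly lower. Of 19 tested, 6 were lower and 1 higher with a median of −0.66. The calls became 3 higher and 6 lower without WT replicate 1, 1 higher and 12 lower without WT replicate 2, 1 higher and 2 lower without MKRN1-null replicate 1, 0 higher and 2 lower without MKRN1-null replicate 2 and 1 higher and 4 lower after rescaling. Cyp2b9 was 148 and 49.2 FPKM in WT and 11.2 and 13.4 FPKM in MKRN1-null livers (log2 fold change −2.71, SE 0.52, adjusted p = 0.0323). Ntrk2, for a neurotrophin receptor, was 4.93 and 4.39 FPKM in WT and 0.603 and 0.357 FPKM in MKRN1-null livers (log2 fold change −1.94, SE 0.13, adjusted p = 0.00873). Ntrk2 thus passed the filter of 1 FPKM on the WT livers alone. Cyp3a44 (−2.46), Cyp2a22 (−2.53) and the transporter gene Slc22a27 (−2.39) fell. Others were highest in WT replicate 1 and lowest in WT replicate 2. Cyp2a4, for a steroid hydroxylase, was 49.9 and 4.55 FPKM in WT and 8.26 and 9.695 FPKM in MKRN1-null livers (log2 fold change −0.76, SE 1.04, adjusted p = 0.624), and without WT replicate 1 its sign turned and it was called higher (log2 fold change 0.84, adjusted p = 0.0489). Acot3, for a peroxisomal thioesterase, was 18.6 and 1.404 FPKM in WT and 8.88 and 6.197 FPKM in MKRN1-null livers (log2 fold change 0.3, SE 0.99, adjusted p = 0.847). It was called higher without WT replicate 1 (1.81) and lower without WT replicate 2 (−1.22). Spry4, for an inhibitor of growth factor signals, was the exception that rose, with 2.25 and 2.45 FPKM in WT and 8.34 and 9.83 FPKM in MKRN1-null livers (log2 fold change 1.59, SE 0.11, adjusted p = 0.00914). Of the 6 called genes named for female-biased expression, the call held for 6 with either WT replicate left out, 3 without MKRN1-null replicate 1, 2 without MKRN1-null replicate 2 and 5 after rescaling (adjusted p up to 0.15). Ntrk2 and Cyp3a44 kept the call in each case.

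Major urinary proteins, pheromone carriers that male livers make in bulk, were higher at 8 of 21 tested genes and lower at 0, with a median of 2.41. Repeating the test gave 14 higher without WT replicate 1, 19 higher without WT replicate 2, 1 higher without MKRN1-null replicate 1, 0 higher without MKRN1-null replicate 2 and 6 higher after rescaling. Their share of all FPKM was 1.65% and 4.69% in the WT and 8.58% and 9.89% in the MKRN1-null livers. Mup7 was 22.99 and 305 FPKM in WT and 7449 and 9581 FPKM in MKRN1-null livers (log2 fold change 6.62, SE 1.20, adjusted p = 0.0289), and Mup3 was 2157 and 4206 FPKM in WT and 7773 and 8449.8 FPKM in MKRN1-null livers (log2 fold change 1.43, SE 0.33, adjusted p = 0.0466). Mup20, the male pheromone darcin, did not follow, with 4436 and 12869 FPKM in WT and 8378 and 7666 FPKM in MKRN1-null livers (log2 fold change 0.08, SE 0.51, adjusted p = 0.917). The genes of this cluster on chromosome 4 are near copies of each other, so that the split of reads between them is uncertain and their sum is the firmer value. Among the 2 called genes named for urinary proteins, the call was kept by 2 with either WT replicate left out, 0 with either MKRN1-null replicate left out and 1 after rescaling (adjusted p up to 0.18).

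The growth hormone and IGF axis, which upholds these sex differences, gave 3 higher and 2 lower of 16 tested genes, at a median of −0.04. In the alternative fits 1 higher and 1 lower without WT replicate 1, 1 higher and 2 lower without WT replicate 2, 2 higher and 1 lower without MKRN1-null replicate 1, 1 higher and 0 lower without MKRN1-null replicate 2 and 3 higher and 0 lower after rescaling were called. Igfbp2, for an IGF-binding protein that falls in obese liver, was 70.5 and 68.3 FPKM in WT and 271 and 322 FPKM in MKRN1-null livers (log2 fold change 2.07, SE 0.11, adjusted p = 0.0069). Its call was kept without each library and after rescaling. Igf1, the growth factor that growth hormone induces, was 45.2 and 44.6 FPKM in WT and 56.9 and 67.97 FPKM in MKRN1-null livers (log2 fold change 0.46, SE 0.11, adjusted p = 0.0488). Ghr, for the growth hormone receptor, was 172 and 184 FPKM in WT and 154 and 208 FPKM in MKRN1-null livers (log2 fold change 0.01, SE 0.16, adjusted p = 0.974), and the genotypes overlapped. Stat5a fell (−0.52) and Stat5b, the transcription factor through which growth hormone acts on male genes, was not called (−0.25, adjusted p = 0.135). Socs2, its direct target, was 3.02 and 7.11 FPKM in WT and 8.19 and 15.7 FPKM in MKRN1-null livers (log2 fold change 1.12, SE 0.44, adjusted p = 0.13). Bcl6, a male-biased repressor gene, was 4.47 and 6.67 FPKM in WT and 24.8 and 9.73 FPKM in MKRN1-null livers (log2 fold change 1.36, SE 0.44, adjusted p = 0.0923). Of the 3 called genes named for this axis, the call held for 1 with either WT replicate left out or with either MKRN1-null replicate left out and 2 after rescaling (adjusted p up to 0.22). Igfbp2 kept the call in each case.

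**Figure D4:**
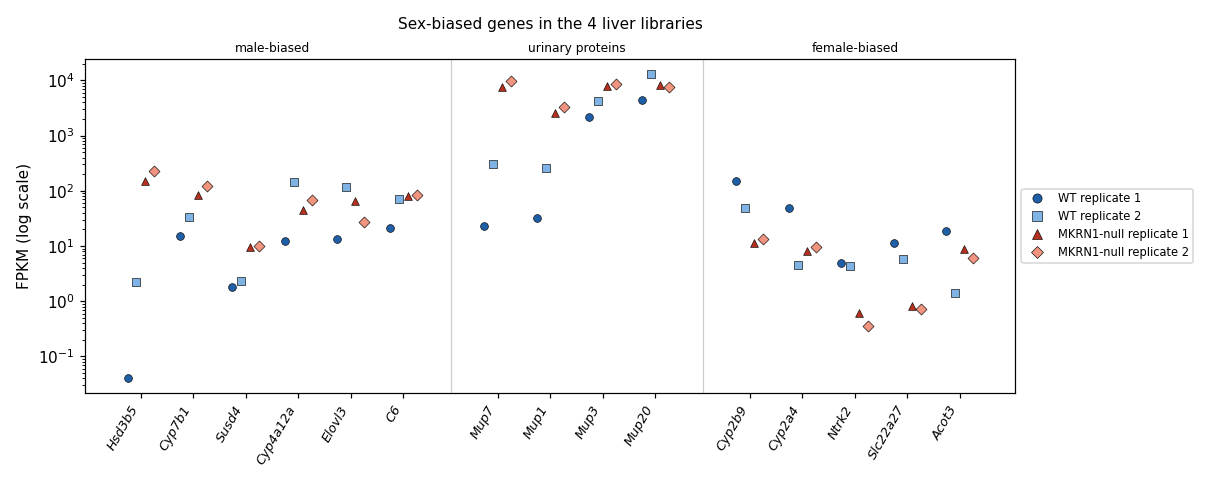
FPKM on a log scale (y axis) of male-biased, major urinary protein and female-biased genes, with 1 symbol per liver library, blue for WT and red for MKRN1-null. WT replicate 1 (circles) has the lowest male-biased and the highest female-biased levels, and Hsd3b5, Mup7, Mup1, Cyp2b9 and Ntrk2 differ between genotypes without overlap while Cyp4a12a, Elovl3, Mup20 and Cyp2a4 overlap.

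Drug-metabolizing genes moved in both directions. Of 37 tested genes of P450 families 1 to 3, 14 were higher and 4 lower with a median of 0.36. Alternatives gave 11 higher and 5 lower without WT replicate 1, 14 higher and 8 lower without WT replicate 2, 5 higher and 2 lower without MKRN1-null replicate 1, 0 higher and 2 lower without MKRN1-null replicate 2 and 17 higher and 3 lower after rescaling. The Cyp2c family led the rises. Cyp2c54 was 3.46 and 13.8 FPKM in WT and 106 and 141 FPKM in MKRN1-null livers (log2 fold change 3.93, SE 0.58, adjusted p = 0.0204). Cyp2c37 was 51.9 and 34.5 FPKM in WT and 176 and 246 FPKM in MKRN1-null livers (log2 fold change 2.27, SE 0.25, adjusted p = 0.0147), and Cyp2c29, an abundant member in mice, was 141 and 101 FPKM in WT and 367 and 441 FPKM in MKRN1-null livers (log2 fold change 1.74, SE 0.19, adjusted p = 0.0147). These neighbours on chromosome 19 are similar in sequence, and reads may be split between them. Cyp2c70, which makes the muricholic acids of mice (1.64), Cyp2c50 (1.59) and Cyp2c23 (1.52) rose. In contrast Cyp3a11, a target of the xenobiotic receptor PXR, was 583 and 601 FPKM in WT and 157 and 193 FPKM in MKRN1-null livers (log2 fold change −1.76, SE 0.12, adjusted p = 0.00914), while Cyp3a13 was not called (0.24, adjusted p = 0.202). Cyp1a1 stayed under 1 FPKM in all livers, and Cyp2b10, a target of the receptor CAR, did as well. Among the 7 called genes named for P450 genes, the call was kept by 6 with either WT replicate left out, 5 without MKRN1-null replicate 1, 1 without MKRN1-null replicate 2 and 7 after rescaling (adjusted p up to 0.11). Cyp3a11 kept the call in each case.

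Of 46 tested genes of phase II conjugation, which couple drugs to soluble groups, 5 were higher and 11 lower with a median of −0.03. The count was 6 higher and 6 lower without WT replicate 1, 6 higher and 7 lower without WT replicate 2, 0 higher and 7 lower without MKRN1-null replicate 1, 0 higher and 2 lower without MKRN1-null replicate 2 and 7 higher and 7 lower after rescaling. Of the 11 lower genes, 6 encode glutathione transferases. Gsta1 was 22.98 and 22.2 FPKM in WT and 1.21 and 0.77 FPKM in MKRN1-null livers (log2 fold change −3.58, SE 0.13, adjusted p = 0.00312), and Gstm3 was 98.3 and 103 FPKM in WT and 20.8 and 12.5 FPKM in MKRN1-null livers (log2 fold change −2.56, SE 0.23, adjusted p = 0.0117). Mgst3 (−1.62), Gstm2 (−1.39) and Gsta2 (−1.03) fell, whereas Gsta3, the abundant α-class member, was not called (−0.05, adjusted p = 0.786). The higher ones were the sulfotransferase gene Sult2a8 (1.81), Sult1d1 (0.68), Sult1b1 (0.56), the glucuronosyltransferase gene Ugt2a3 (0.5) and Nnmt, for nicotinamide methyltransferase (0.85). Targets of Nrf2, the factor that answers oxidative stress, were lower at 15 of 22 genes and higher at 0, with a median of −0.87. Calls then numbered 7 lower without WT replicate 1, 11 lower without WT replicate 2, without MKRN1-null replicate 1 or after rescaling and 3 lower without MKRN1-null replicate 2. Cbr3, for a carbonyl reductase, was 4.58 and 3.53 FPKM in WT and 0.354 and 0.433 FPKM in MKRN1-null livers (log2 fold change −1.85, SE 0.14, adjusted p = 0.00976). Nqo1, the classical quinone reductase target, was 9.26 and 7.43 FPKM in WT and 2.73 and 2.11 FPKM in MKRN1-null livers (log2 fold change −1.45, SE 0.15, adjusted p = 0.0137). Srxn1, for the sulfiredoxin that repairs peroxiredoxins, was 34.6 and 35.7 FPKM in WT and 12.9 and 9.33 FPKM in MKRN1-null livers (log2 fold change −1.59, SE 0.16, adjusted p = 0.0127). Hmox1 (−0.84, adjusted p = 0.0846) and Gclm (−0.26, adjusted p = 0.0706) were not called, nor was Prdx1 (−0.29, adjusted p = 0.0922). The members with the largest falls, Gsta1 and Gstm3, stand in both lists. Of the 13 called genes named for conjugation and Nrf2, the call held for 10 without WT replicate 1, 11 without WT replicate 2, 8 without MKRN1-null replicate 1, 3 without MKRN1-null replicate 2 and 12 after rescaling (adjusted p up to 0.19). Gsta1, Gstm3 and Srxn1 kept the call in each case.

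Genes of bile acid synthesis and transport were called at 3 of 23 as higher and 0 as lower, with a median of −0.06. Leaving out libraries or rescaling gave 3 higher and 0 lower without WT replicate 1 or after rescaling, 4 higher and 3 lower without WT replicate 2, 0 higher and 1 lower without MKRN1-null replicate 1 and 0 higher and 0 lower without MKRN1-null replicate 2. Cyp7a1, the rate-limiting enzyme of bile acid synthesis, was 8.65 and 6.0 FPKM in WT and 2.804 and 11.8 FPKM in MKRN1-null livers (log2 fold change −0.23, SE 0.59, adjusted p = 0.798), and the MKRN1-null livers were the lowest and the highest of the 4. Cyp8b1, which directs synthesis to cholic acid, was 224 and 334 FPKM in WT and 154 and 75.6 FPKM in MKRN1-null livers (log2 fold change −1.33, SE 0.39, adjusted p = 0.0717). The higher genes were Cyp7b1, Slc10a1, for the importer NTCP with 231 and 224 FPKM in WT and 359 and 339.5 FPKM in MKRN1-null livers (log2 fold change 0.62, SE 0.08, adjusted p = 0.0184), and Slc27a5 (0.41). Of 24 genes of cholesterol synthesis and uptake, 5 were lower and 0 higher with a median of −0.6, and the calls depended on the scaling. Counts by alternative were 0 higher and 0 lower without WT replicate 1 or without MKRN1-null replicate 2, 0 higher and 2 lower without WT replicate 2, 0 higher and 11 lower without MKRN1-null replicate 1 and 1 higher and 0 lower after rescaling. Hmgcs1, an early enzyme of the pathway, was 89.5 and 123 FPKM in WT and 49.4 and 23.7 FPKM in MKRN1-null livers (log2 fold change −1.58, SE 0.37, adjusted p = 0.0472). MKRN1-null replicate 2 was the lowest here, as in Mvd, with 11.6 and 16.5 FPKM in WT and 5.41 and 2.51 FPKM in MKRN1-null livers (log2 fold change −1.65, SE 0.33, adjusted p = 0.0355). Among the 4 called genes named for bile acids and cholesterol, the call was kept by 1 with either WT replicate left out, 2 without MKRN1-null replicate 1 or after rescaling and 0 without MKRN1-null replicate 2 (adjusted p up to 0.18).

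Genes of fatty acid oxidation, many of them PPARα targets, were called at near the share of all genes. Of 39 genes, 7 were lower and 0 higher with a median of −0.28. Recomputed, the calls were 2 higher and 2 lower without WT replicate 1 or after rescaling, 0 higher and 3 lower without WT replicate 2, 0 higher and 5 lower without MKRN1-null replicate 1 and 0 higher and 1 lower without MKRN1-null replicate 2. Ppara was 60.1 and 46.5 FPKM in WT and 60.1 and 48.2 FPKM in MKRN1-null livers (log2 fold change 0.02, SE 0.17, adjusted p = 0.931). Cpt1a, the gate of mitochondrial oxidation, was 165 and 109 FPKM in WT and 125 and 97.4 FPKM in MKRN1-null livers (log2 fold change −0.28, SE 0.23, adjusted p = 0.42). For both the genotypes were within or near the spread of replicates. Pdk4, which blocks glucose oxidation in fasting, was the exception with 8.41 and 10.1 FPKM in WT and 1.44 and 0.719 FPKM in MKRN1-null livers (log2 fold change −2.32, SE 0.20, adjusted p = 0.0107). Aldh3a2 (−1.06), Vnn1 (−1.0), Ehhadh (−0.81) and Bdh1 (−0.61) were lower. Fgf21, the fasting and stress hormone, was 15.7 and 21.1 FPKM in WT and 9.42 and 3.005 FPKM in MKRN1-null livers (log2 fold change −1.57, SE 0.47, adjusted p = 0.077). Of the 5 called genes named for fatty acid oxidation, the call held for 2 with either WT replicate left out or after rescaling, 3 without MKRN1-null replicate 1 and 1 without MKRN1-null replicate 2 (adjusted p up to 0.15). Pdk4 kept the call in each case.

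Amino acid breakdown leaned higher. Of 49 genes of amino acid catabolism and the urea cycle, 12 were higher and 2 lower with a median of 0.2. The calls became 6 higher and 1 lower without WT replicate 1, 11 higher and 1 lower without WT replicate 2, 1 higher and 1 lower without MKRN1-null replicate 1, 0 higher and 0 lower without MKRN1-null replicate 2 and 16 higher and 1 lower after rescaling. Besides Cps1, given above, Otc, the second urea cycle enzyme, was 159 and 176 FPKM in WT and 187 and 204 FPKM in MKRN1-null livers (log2 fold change 0.23, SE 0.10, adjusted p = 0.161). Arg1, the last, was 592 and 507 FPKM in WT and 672 and 630.2 FPKM in MKRN1-null livers (log2 fold change 0.25, SE 0.11, adjusted p = 0.174). Hpd, of tyrosine breakdown, was 928 and 910.2 FPKM in WT and 1722 and 1698 FPKM in MKRN1-null livers (log2 fold change 0.9, SE 0.09, adjusted p = 0.0129). Of these Hpd was called, while Otc and Arg1 were not. Gnmt, which disposes of excess methyl groups (0.83), Agxt (0.64) and Prodh (0.64) rose. Csad, of taurine synthesis, was the largest fall with 78.3 and 89.5 FPKM in WT and 31.1 and 22.2 FPKM in MKRN1-null livers (log2 fold change −1.64, SE 0.18, adjusted p = 0.0145). Ass1 was listed near 1 FPKM in all 4 livers, with 0.7505 and 0.779 FPKM in WT and 1.01 and 1.05 FPKM in MKRN1-null livers, although its enzyme is abundant in liver, so that its value here is uncertain. Of 24 genes of gluconeogenesis and glycogen, 6 were lower and 0 higher with a median of −0.25. Repeating the test gave 1 higher and 3 lower without WT replicate 1, 1 higher and 7 lower without WT replicate 2, 0 higher and 0 lower with either MKRN1-null replicate left out and 0 higher and 3 lower after rescaling. G6pc, the last step of glucose release, was 366 and 243 FPKM in WT and 96.96 and 134 FPKM in MKRN1-null livers (log2 fold change −1.38, SE 0.25, adjusted p = 0.0296). Pck1, the gate of gluconeogenesis, was 682 and 448 FPKM in WT and 805 and 600.5 FPKM in MKRN1-null livers (log2 fold change 0.33, SE 0.25, adjusted p = 0.377). Pgm2 (−1.02), the glycogen branching enzyme gene Gbe1 (−0.75), Gyg, for the primer of glycogen (−0.69), and Pcx (−0.57) fell. Among the 10 called genes named for amino acids and glucose, the call was kept by 6 without WT replicate 1, 8 without WT replicate 2 or after rescaling, 1 without MKRN1-null replicate 1 and 0 without MKRN1-null replicate 2 (adjusted p up to 0.16).

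Clock genes mainly separated WT replicate 2 from the other 3 livers. Of 19 tested clock genes, 2 were higher and 0 lower. In the alternative fits 9 higher and 1 lower without WT replicate 1, 2 higher and 0 lower without WT replicate 2 or after rescaling and 0 higher and 0 lower with either MKRN1-null replicate left out were called. Dbp, an output factor that swings widely over the day, was 83.2 and 19.1 FPKM in WT and 84.6 and 103 FPKM in MKRN1-null livers (log2 fold change 1.2, SE 0.68, adjusted p = 0.25). Ciart, a repressor in the same phase, was 6.04 and 0.7003 FPKM in WT and 7.97 and 11.6 FPKM in MKRN1-null livers (log2 fold change 1.62, SE 0.69, adjusted p = 0.152). Arntl, the gene of the activator BMAL1 that peaks in the opposite phase, was 0.871 and 4.21 FPKM in WT and 1.01 and 0.403 FPKM in MKRN1-null livers (log2 fold change −0.89, SE 0.52, adjusted p = 0.257). WT replicate 2 was the lowest in Dbp and Ciart, and in Arntl the highest of the 4 livers. Per1 (0.77, adjusted p = 0.232), Per3 (0.59, adjusted p = 0.443) and Clock (0.08, adjusted p = 0.888) were not called. The called genes were Nr1d1, for the repressor REV-ERBα, with 36.5 and 42.1 FPKM in WT and 74.6 and 61.4 FPKM in MKRN1-null livers (log2 fold change 0.77, SE 0.13, adjusted p = 0.0264), and Bhlhe41 with 0.443 and 0.144 FPKM in WT and 1.86 and 1.49 FPKM in MKRN1-null livers (log2 fold change 1.06, SE 0.16, adjusted p = 0.0215). Bhlhe41 passed the filter of 1 FPKM on the MKRN1-null livers alone. The promoter of Ciart (chr3:95882179-95882478, minus strand, RefSeq, GRCm38.p6) is shown because WT replicate 2 stood apart in this gene. It holds the E box CACGTG, the motif of BMAL1 and CLOCK, at 3 places, printed in capitals.
Ciart: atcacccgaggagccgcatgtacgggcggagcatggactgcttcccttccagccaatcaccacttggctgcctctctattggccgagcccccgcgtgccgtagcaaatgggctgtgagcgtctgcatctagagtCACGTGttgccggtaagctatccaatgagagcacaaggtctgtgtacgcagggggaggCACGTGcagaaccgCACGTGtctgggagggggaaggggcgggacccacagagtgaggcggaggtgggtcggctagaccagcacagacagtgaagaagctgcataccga
The E box, which reads the same on both strands, was in at least 1 window of 5 of 17 clock genes. Counted per window and not per gene, it was in 7.15% of all windows. The ER chaperone genes moved with this library too. Hspa5, for the chaperone BiP, was 195 and 393 FPKM in WT and 216 and 243 FPKM in MKRN1-null livers (log2 fold change −0.27, SE 0.34, adjusted p = 0.591), and of 25 genes of the unfolded protein response 1, Derl1 (−0.36), was lower and 0 higher, with a median of −0.23. Alternatives gave 0 higher and 6 lower without WT replicate 1 and 0 higher and 0 lower without WT replicate 2, with either MKRN1-null replicate left out or after rescaling. The hour at which each liver was taken is not given in the sources used here, and its part in these values was not tested. Of the 3 called genes named for the clock, the call held for 1 without WT replicate 1, 2 without WT replicate 2 or after rescaling and 0 with either MKRN1-null replicate left out (adjusted p up to 0.27).

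**Figure D5:**
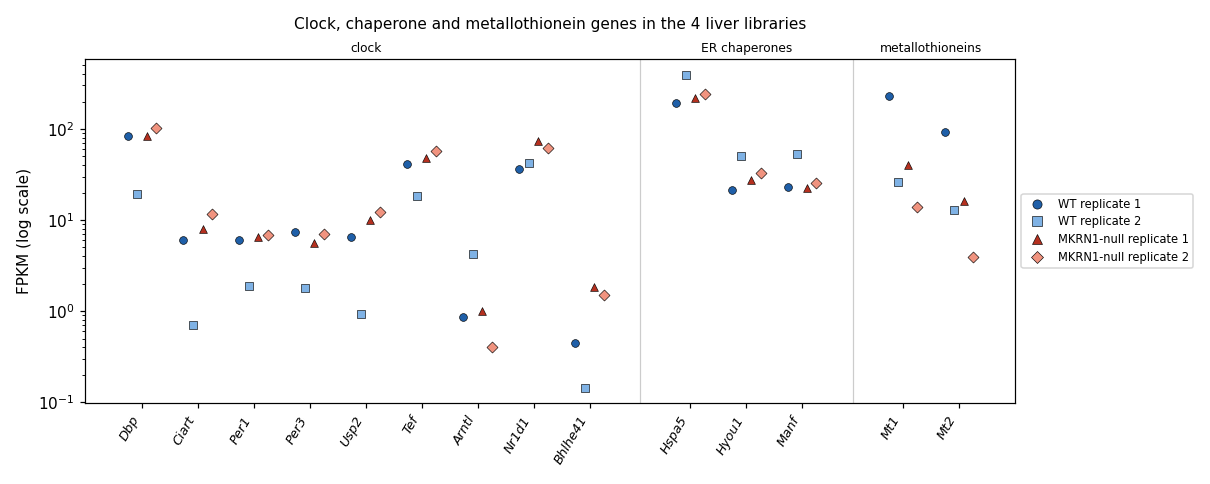
FPKM on a log scale (y axis) of clock, ER chaperone and metallothionein genes, with 1 symbol per liver library, blue for WT and red for MKRN1-null. WT replicate 2 (squares) is the lowest for Dbp, Ciart, Per1, Per3, Usp2 and Tef and the highest for Arntl, Hspa5, Hyou1 and Manf, and WT replicate 1 (circles) is the highest for Mt1 and Mt2.

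Among stress programmes, the integrated stress and glucocorticoid responses were called lower at near or under the share of all genes (16.9%). Heat shock genes were above that share. Of 17 tested genes of the integrated stress response, 3 were lower and 0 higher with a median of −0.29. The count was 1 higher and 2 lower without WT replicate 1, 1 higher and 3 lower without WT replicate 2, 0 higher and 2 lower without MKRN1-null replicate 1 or after rescaling and 0 higher and 0 lower without MKRN1-null replicate 2. Nupr1, a stress-induced chromatin protein gene, was 6.92 and 6.12 FPKM in WT and 1.39 and 1.46 FPKM in MKRN1-null livers (log2 fold change −1.63, SE 0.10, adjusted p = 0.00824), and Atf3 fell (−1.05), while Atf4, the driver of the response, was not called (−0.13, adjusted p = 0.744). Of 16 heat shock genes, 5 were lower and 0 higher with a median of −0.32. Calls then numbered 0 higher and 3 lower with either WT replicate left out, 0 higher and 1 lower without MKRN1-null replicate 1, 0 higher and 0 lower without MKRN1-null replicate 2 and 1 higher and 2 lower after rescaling. Hspb1, for a small heat shock protein, was 63.1 and 77.3 FPKM in WT and 20.96 and 24.7 FPKM in MKRN1-null livers (log2 fold change −1.58, SE 0.14, adjusted p = 0.0109). Serpinh1, a chaperone of collagen, was 16.7 and 12.4 FPKM in WT and 2.804 and 5.95 FPKM in MKRN1-null livers (log2 fold change −1.59, SE 0.32, adjusted p = 0.0358). Of 18 tested genes of the glucocorticoid response, 2 were lower and 0 higher with a median of 0.05, the lower ones being Lcn2 and Cdkn1a. Leaving out libraries or rescaling gave 2 higher and 1 lower without WT replicate 1, 1 higher and 3 lower without WT replicate 2, 0 higher and 2 lower without MKRN1-null replicate 1, 0 higher and 1 lower without MKRN1-null replicate 2 and 1 higher and 1 lower after rescaling. Fkbp5, a sensitive target, missed the threshold with 9.44 and 4.38 FPKM in WT and 17.9 and 16.8 FPKM in MKRN1-null livers (adjusted p = 0.0529). Mt1 was 232 and 26.4 FPKM in WT and 40.1 and 13.96 FPKM in MKRN1-null livers (log2 fold change −1.69, SE 1.10, adjusted p = 0.31), with WT replicate 1 far above the others. Among the 4 called genes named for stress responses, the call was kept by 2 without WT replicate 1 or without MKRN1-null replicate 1, 3 without WT replicate 2 or after rescaling and 0 without MKRN1-null replicate 2 (adjusted p up to 0.11).

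Of 23 tested immediate early genes, 3 were higher and 5 lower with a median of −0.45. Counts by alternative were 3 higher and 6 lower without WT replicate 1, 4 higher and 8 lower without WT replicate 2, 3 higher and 2 lower without MKRN1-null replicate 1, 1 higher and 0 lower without MKRN1-null replicate 2 and 3 higher and 5 lower after rescaling. Junb rose, with 24.6 and 25.1 FPKM in WT and 48.5 and 49.6 FPKM in MKRN1-null livers (log2 fold change 0.95, SE 0.07, adjusted p = 0.00976), and Zfp36, for a protein that destabilizes cytokine mRNA, rose (0.58). Ccn2, for connective tissue growth factor, was 5.77 and 7.45 FPKM in WT and 1.61 and 1.66 FPKM in MKRN1-null livers (log2 fold change −1.52, SE 0.14, adjusted p = 0.0109). Klf6 (−1.2), Myc (−1.07) and Atf3 fell, and Fos, with 5.53 and 17.9 FPKM in WT and 2.86 and 10.1 FPKM in MKRN1-null livers, varied within each genotype (adjusted p = 0.462). Jund had the largest rise of the list, with 0.819 and 0.906 FPKM in WT and 41.6 and 44.1 FPKM in MKRN1-null livers (log2 fold change 4.56, SE 0.09, adjusted p = 0.000954), but its 2 RefSeq transcripts have the same coordinates (chromosome 8, 70697739 to 70700616) and in the WT livers its value was spread over both of them at under 1 FPKM, so that how its reads were assigned is uncertain. Similar doubts hold for Rps27, at 1.93 and 269 FPKM in WT and 297 and 303 FPKM in MKRN1-null livers, and Hbb-bt, at 0.268 and 108 FPKM in WT and 95.96 and 48.7 FPKM in MKRN1-null livers, which were nearly absent in WT replicate 1 alone. Of the 6 called genes named for immediate early genes, the call held for 5 without WT replicate 1, 6 without WT replicate 2 or after rescaling, 4 without MKRN1-null replicate 1 and 1 without MKRN1-null replicate 2 (adjusted p up to 0.12). Jund kept the call in each case.

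Housekeeping programmes stayed near the typical gene. Of 77 tested cytosolic ribosomal protein genes, 1 was lower and 0 higher with a median of −0.08. Recomputed, the calls were 0 higher and 0 lower without WT replicate 1, with either MKRN1-null replicate left out or after rescaling and 1 higher and 0 lower without WT replicate 2. The lower gene was Rps12 (−0.38). Of 75 genes of the respiratory chain and ATP synthase, 6 were lower and 0 higher with a median of −0.23. The calls became 0 lower without WT replicate 1, with either MKRN1-null replicate left out or after rescaling and 1 lower without WT replicate 2. Cox8a, a cytochrome oxidase subunit gene, was 462 and 462 FPKM in WT and 355 and 332 FPKM in MKRN1-null livers (log2 fold change −0.43, SE 0.09, adjusted p = 0.0353), and Ndufa1, of complex I, was not called (−0.26, adjusted p = 0.0719). The proteasome degrades proteins that E3 ligases mark. Of 33 proteasome genes, 3 were lower and 0 higher with a median of −0.17. Repeating the test gave 1 lower with either WT replicate left out or after rescaling and 0 lower with either MKRN1-null replicate left out. Psmd8 was 109.8 and 120.3 FPKM in WT and 72.8 and 64.7 FPKM in MKRN1-null livers (log2 fold change −0.74, SE 0.10, adjusted p = 0.0186), Psmb5 (−0.46) and Psmd1 (−0.45) were the other called genes, and Psma1 was not called (−0.28, adjusted p = 0.103). After rescaling the medians of the 3 lists were 0.13, −0.02 and 0.03. Among the 5 called genes named for these machines, the call was kept by 1 with either WT replicate left out or after rescaling and 0 with either MKRN1-null replicate left out (adjusted p up to 0.23).

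Among the 12 largest rises outside the urinary proteins stood Eif4ebp3, for a repressor of cap-dependent translation, with 7.67 and 7.66 FPKM in WT and 48.1 and 54.3 FPKM in MKRN1-null livers (log2 fold change 2.59, SE 0.09, adjusted p = 0.00312), and Serpina1e, an α1-antitrypsin gene of the male programme, with 551 and 981 FPKM in WT and 3585 and 4777 FPKM in MKRN1-null livers (log2 fold change 2.49, SE 0.31, adjusted p = 0.0169). Of the 2 called genes named here, the call held for 2 with either WT replicate left out, without MKRN1-null replicate 1 or after rescaling and 1 without MKRN1-null replicate 2 (adjusted p up to 0.087). Eif4ebp3 kept the call in each case.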

How the data were processed

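The deposited files hold, for each liver library, the FPKM of every RefSeq transcript, which the authors computed from poly(A) RNA reads. Per the file headers and labels, reads were aligned with HISAT2 to mm10, sorted with SAMtools and quantified with StringTie 1.3.3b on a fixed annotation, without scaling between libraries and without pooling. The methods text of the study describes another aligner and counter for its RNA-seq. The labels and that text also differ in the length of feeding, and the labels were followed. The number of reads per gene is not used here, so that counting error cannot be given, and the depth is the aligned bases.

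FPKM values were summed over the transcripts of a gene ID, and genes with at least 1 FPKM in at least 2 of the 4 libraries were kept. Symbols came from RefSeq (GRCm38.p6) for 24462 of 24532 gene IDs. Log2(FPKM + 1) was compared between genotypes with limma 3.58.1 (R 4.3.3, empirical Bayes with a variance trend), and p-values were adjusted by the Benjamini-Hochberg method. Each log2 fold change is MKRN1-null over WT on that scale, which understates the change of genes with low FPKM. The script was tested on simulated data. The pseudocount, unit, filter, scaling, variance trend, a replicate block and each library were varied in 12 alternatives.

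Genes were described in 52 lists of cell type markers and programmes by their counts and medians. The members and lists were chosen with earlier results of these data known. Named genes are Mkrn1, the 12 largest rises and 12 largest falls with adjusted p under 0.05 and no overlap of genotypes, and in each list up to 5 called members with the largest changes and the first 3 tested members. Other genes, such as Adgre1, Timp1, Acta2, Dbp and Cyp2c29, were chosen after their values were seen. Of the listed genes, 3 had no match and some stayed under the filter. Promoter windows were taken from RefSeq (GRCm38.p6). Most other listed genes enter only through the counts and medians of their lists.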

Additional observations from a re-analysis of the deposited data

How the results depend on the processing

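The majority of lower calls was kept under each of the 12 alternatives, but its size was not. Against 2106 called genes (272 higher and 1834 lower), median-of-ratios scaling gave 1244 (440 higher and 804 lower) and quantile normalization 1040 (402 higher and 638 lower), so that the lower share of calls went from 87.1% to 64.6% and 61.3%. The medians of all log2 fold changes were −0.17, 0.00 and 0.03. With quantile values, cell cycle genes had 2 lower calls against 10 and matrix genes 9 against 14. Male-biased genes had 5 higher calls against 9. Recruited macrophage genes had 11 lower calls against 12, and class II genes had 7 in both. A filter of 5 FPKM left 6712 genes and 1276 calls, 1066 of them lower. Leaving out a library gave 55 to 1880 calls, 6 to 259 higher and 49 to 1621 lower, and the fit then had a single library in 1 genotype, which is assumed to vary like the other genotype. The cause of these differences between libraries was not tested. The log2 fold change of Vsig4, 0.04 with all libraries, was −0.85 without WT replicate 2 and 0.94 without WT replicate 1. That of Cyp2a4, −0.76 with all libraries, was 0.84 without WT replicate 1 and −2.35 without WT replicate 2. Of the 188 called genes among the 277 that the naming rule chose, 161 lost the call without MKRN1-null replicate 2, 116 without MKRN1-null replicate 1, 67 without WT replicate 1, 38 without WT replicate 2, 51 with median-of-ratios and 72 with quantile values. Across genes, the deviations of same-numbered livers from their group means were not correlated (r = 0.00666). With 2 livers per genotype this value cannot decide whether same-numbered mice were paired. A fit with the replicate number as a block gave 1493 calls.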
